A study of Mus musculus with 5 samples.

Results

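The mRNAs described here encode the nuclear subunits of respiratory complexes II, III, IV and V and the 2 cytochromes c1 and c (Cyc1 and Cycs). Membership was set by gene symbol (Sdha to Sdhd, Uqcr, Cox4 to Cox8 and Atp5 genes, Cyc1 and Cycs, without symbols marked -ps), which gave 50 of the 49875 gene IDs in the deposited table. Of these, 44 reached an abundance of 1 in 2 or more of the 5 libraries and were tested: 4 in complex II, 9 in complex III with Cyc1, Cycs, 13 of 19 in complex IV and 17 in complex V. All libraries came from wild-type mouse cerebral cortex (neocortex in the titles, forebrain in the tissue label) at E13.5, a stage of embryonic development when cortical progenitors are producing neurons. The cortices were dissociated to single cells and lysed with NP-40, and the cytoplasmic supernatant was taken forward. The groups were a precipitate with an antibody against eIF4E (2 libraries), a precipitate with rabbit control IgG (1 library) and the supernatant itself, called Input (2 libraries). The paired libraries are labelled as biological replicates, but no animal or pool is named, so the p-values cover library-to-library spread, which may be technical.

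eIF4E binds the cap at the start of an mRNA and begins the recruitment of the ribosome. Complex II (succinate dehydrogenase) and complex III (cytochrome bc1) pass electrons by way of ubiquinone and cytochrome c to complex IV (cytochrome c oxidase), and complex V (ATP synthase) uses the proton gradient that results. Complex II is wholly encoded in the nucleus, whereas complexes III, IV and V also hold subunits encoded in mitochondrial DNA. The nuclear subunits are made on cytoplasmic ribosomes and imported, so their mRNAs were within reach of this assay. Several subunits of complex IV come in isoforms made by paralogous genes in different tissues.

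Abundances are RSEM values, TPM or FPKM (the table does not say which), and both are per transcript length. Fold changes are on the scale of value + 1. Adjusted p-values come from limma over the 12769 genes tested, with a threshold of 0.05. The sequencing depth behind the values is unknown, and without strand information reads of overlapping genes cannot be told apart. The replicate libraries correlated across genes at r = 0.989 (eIF4E) and 0.993 (Input), and the IgG library lay at 0.593 to 0.707 with the others. Of 5403 genes above 10 in every other library, 360 were listed at 0 in IgG, whereas none of the 39 subunit genes above that level was. Markers of cortical progenitors (10 of 10 tested, summed level 1449 to 2092) and neurons (8 of 8 tested, 1166 to 1479) were present in every library. In eIF4E against Input, 5 progenitor markers were higher and 4 lower, and 6 neuron markers were higher and 1 lower (43.3% of all genes tested were higher and 30.6% lower). The median neuron marker stood at log2 0.900 in IgG over Input and at -0.127 in eIF4E over IgG. By the median, the neuron markers were thus not higher in eIF4E than in the lone IgG library. For the progenitor markers these medians were -0.103 and 0.3205. Markers of erythroid, endothelial and microglial cells moved with the falls below, and those of the meninges went both ways. Of 5 meningeal markers tested 2 were higher in eIF4E than in Input and 3 lower. The summed level of the meningeal markers was 95.06 and 91.05 in eIF4E, 271.3 in IgG and 133.91 and 115 in Input. Most of the IgG sum was Col3a1 (241.79), and 2 of the 5 were listed at 0 there. All 8 erythroid markers tested were lower in eIF4E than in Input, with a summed level of 6053 and 4533 in eIF4E, 2341 in IgG and 16115 and 17570 in Input, and of the defining markers Hba-a2 was listed at 0 in IgG. Of 6 endothelial markers tested 3 were lower and 0 higher. Their summed level was 37.37 and 39.11 in eIF4E, 2.96 in IgG and 82.99 and 86.15 in Input, with 3 listed at 0 in IgG. Of 6 microglial markers 4 were lower and 0 higher. Their summed level was 24.15 and 19.47 in eIF4E, 21.97 in IgG and 49.55 and 58.64 in Input. Nearly all of that IgG sum was C1qb (21.85), and 4 of the 6 were listed at 0 there. The part of these cell types in the subunit values was not tested. Precipitates and Input are RNA fractions of lysed cells, so a lower marker means less of that mRNA in the fraction and does not count cells. In bulk libraries, recovery by the antibody, fewer cells of a type and less RNA per cell cannot be told apart.

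Together the 50 genes made up 2.21% and 2.02% of all abundance in the eIF4E libraries, 0.826% in IgG, and 2.66% and 2.74% in Input. The eIF4E share was thus below both Input libraries and above IgG. The difference of the means was -0.584 percentage points, with SDs of 0.136 in eIF4E and 0.0545 in Input (n = 2 each). A two-sided exact permutation test gave p = 0.33, the smallest value that 2 libraries against 2 allow. Complex V held the largest part of the sum, at 1.11% and 1.06% in eIF4E, 0.467% in IgG and 1.48% and 1.52% in Input. Complex II was the smallest of the 4 complexes, at 0.102% in both eIF4E libraries, 0.0465% in IgG and 0.102% and 0.0997% in Input, so its share overlapped between eIF4E and Input. Single genes spanned a wide range in Input, from 3.59 for Cox6b2 to 5143 for Atp5b, the beta subunit that carries the catalytic sites of ATP synthase.

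**Figure D1:**
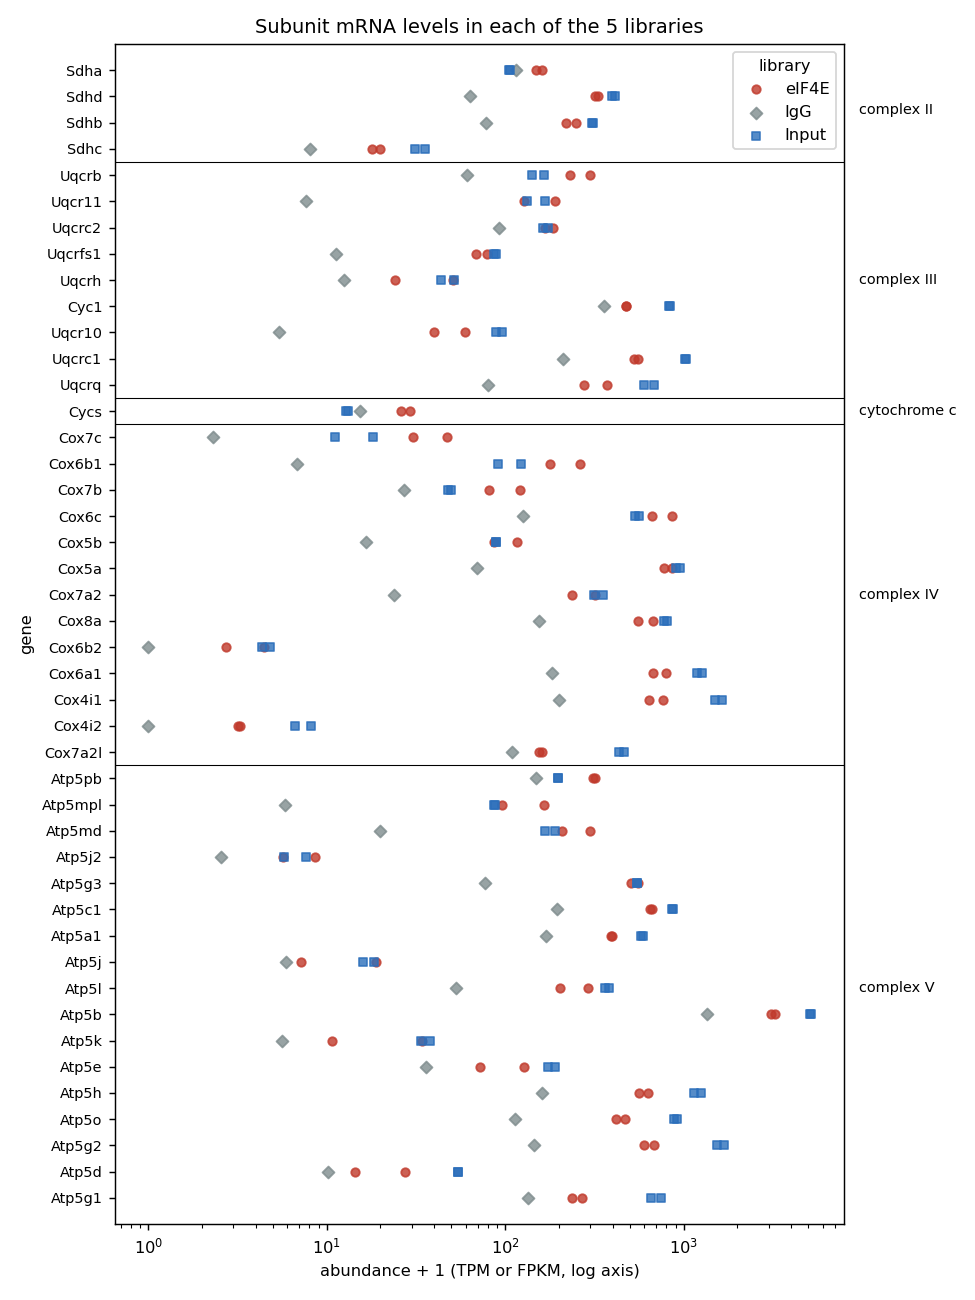
Abundance + 1 (x axis, log scale) of the 44 tested subunit genes (y axis, by complex) in each library, 1 point per library, with 2 eIF4E, 1 IgG and 2 Input points a gene. IgG lies lowest for each gene except Sdha and Cycs.

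Setting eIF4E against Input shows how the subunit mRNAs in the precipitate stood to those of the starting lysate. Subunit mRNAs of complexes II to V went both ways, with more falls than rises: 23 of 44 were lower (30.6% of all genes tested were lower) and 8 were higher (43.3% of all genes were higher). The 31 calls compare with 73.9% of all genes called in either direction. The median subunit stood at log2 -0.40, against 0.16 for all genes tested. Without eIF4E replicate 2 it stood at -0.19 (all genes 0.17), and without eIF4E replicate 1 at -0.53 (all genes 0.16). The 8 risers were Sdha, Uqcrb, Cycs, Cox6b1, Cox6c, Cox7b, Cox7c and Atp5pb, so each complex held at least 1. The falls reached 0.351 for Cox7a2l, and the rises 2.65-fold for Cox7c.

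How many subunits lay on each side depended on the scaling between libraries. Quantile normalization gave 12 higher and 16 lower, a common total 13 higher and 17 lower, and median-of-ratios scaling 7 higher and 27 lower, with 33.7%, 50.9% and 35.0% of all genes higher and 40.3%, 21.5% and 40.7% lower. Median-of-ratios scaling took the median of all genes to log2 -0.10, and the subunit median lay 0.60 below it there, against 0.56 below it in the deposited values and 0.11 under quantile normalization. Of the 31 calls, 3 rises (Sdha, Cycs, Atp5pb) and 13 falls passed under each of the 14 alternatives that gave them a value (Cox4i2 had none where a value above 0 was asked of all 5 libraries). Those falls were Sdhc, Cyc1, Uqcrc1, Uqcrq, Cox4i1, Cox4i2, Cox6a1, Cox7a2l, Atp5a1, Atp5g1, Atp5g2, Atp5h and Atp5o. Without Input replicate 1 the counts were 4 higher and 16 lower, without Input replicate 2 they were 5 and 16, and without eIF4E replicate 2 and 1 they were 11 and 22, and 6 and 29.

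**Figure D2:**
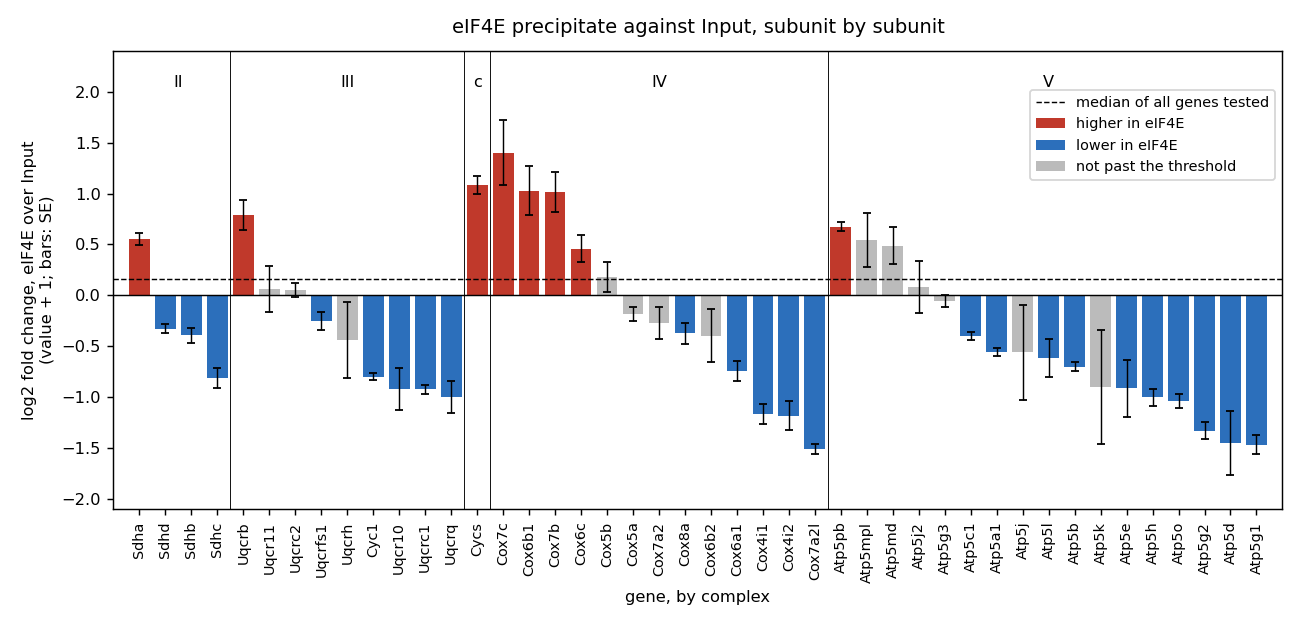
Log2 fold change of eIF4E over Input (y axis, value + 1; error bars, SE) for the 44 tested subunit genes (x axis, by complex, c marking Cycs), coloured by whether the limma adjusted p was under 0.05. The 8 red bars are spread over the complexes, and the dashed line is the median of all genes tested, 0.16.

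In complex II the flavoprotein and the 3 other subunits differed in direction. Sdha, which carries the FAD where succinate is oxidised, measured 147.87 and 160.51 in eIF4E, 114.48 in IgG and 104.97 and 104.5 in Input. Both eIF4E libraries lay above the other 3, with Sdha 1.47-fold above Input (log2 0.55, SE 0.06, adjusted p = 0.00101 from limma). Sdhb, the iron-sulphur subunit, measured 248.26 and 219.39 in eIF4E, 76.7 in IgG and 304.88 and 309.15 in Input. It fell to 0.761 of Input (adjusted p = 0.00636), a call that dropping Input replicate 1 or 2 took away (log2 -0.40 and -0.38). The fall of Sdhb also missed the threshold under quantile normalization (log2 -0.14, adjusted p = 0.137 from limma) and with a common total (log2 -0.15, 0.0933). The membrane anchors are Sdhc and Sdhd. Sdhd measured 315.51 and 328.98 in eIF4E, 62.42 in IgG and 412.32 and 397.66 in Input, and its fall to 0.796 missed the threshold under quantile normalization (adjusted p = 0.102) and with a common total (0.203). Sdhc measured 18.91 and 16.97 in eIF4E, 7.05 in IgG and 30.3 and 34.34 in Input, a fall to 0.569 with no overlap between groups.

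Complex III had 5 of 9 genes lower and 1 higher, where 30.6% of all genes tested were lower and 43.3% higher. Cyc1, the cytochrome c1 that hands electrons to cytochrome c, measured 476.76 and 477.2 in eIF4E, 358.22 in IgG and 821.91 and 841.25 in Input. Its fall to 0.574 of Input (log2 -0.80, SE 0.04, adjusted p = 1.17e-04) stood far outside the spread of either pair. Uqcrc1, a core protein on the matrix side, likewise fell to 0.527 (524.05 and 552.03 in eIF4E, against 1024 and 1021 in Input). Its core partner Uqcrc2 measured 166.38 and 183.6 in eIF4E and 162.68 and 173.48 in Input. The Uqcrc2 groups overlapped, at 1.04-fold (adjusted p = 0.489), and scaling put it on either side (log2 -0.25 by median of ratios, adjusted p = 0.0351, and 0.30 with a common total, adjusted p = 0.0169). The Rieske iron-sulphur protein Uqcrfs1 measured 78.04 and 67.47 in eIF4E, 10.34 in IgG and 85.59 and 87.64 in Input. It stood at 0.84 of Input, and its adjusted p of 0.0476 was lost under several alternatives, among them without eIF4E replicate 2 (0.0961) and without either Input replicate (0.155 and 0.195).

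Among the small subunits of complex III the values scattered more. Uqcrb, which lies near the ubiquinone site, measured 297.91 and 229.18 in eIF4E, 60.3 in IgG and 139.46 and 162.99 in Input. It was the only member of the complex past the threshold above Input in the values as deposited (1.73-fold, log2 0.79, SE 0.15, adjusted p = 0.00773), and without Input replicate 1 the adjusted p was 0.0636. Uqcrq, the lowest of the complex by fold change, measured 368.92 and 276.51 in eIF4E, 78.74 in IgG and 598.61 and 681.72 in Input, a fall to 0.501. Uqcr10 fell to 0.527, a call that did not survive dropping Input replicate 1 or 2 (adjusted p = 0.0705 and 0.0928). Uqcr11 did not pass (1.04-fold), nor did the hinge protein Uqcrh, whose eIF4E libraries at 49.98 and 23.02 spanned the Input values of 42.46 and 50.79. Without eIF4E replicate 1, Uqcrh passed as lower (log2 -0.98, adjusted p = 0.0119).

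Cycs, the soluble carrier between complexes III and IV, measured 28.4 and 24.96 in eIF4E, 14.44 in IgG and 12.17 and 11.84 in Input. Both eIF4E libraries were above the other 3, and the rise over Input was 2.12-fold (log2 1.09, SE 0.09, adjusted p = 4.7e-04). Cytochrome c and cytochrome c1, neighbours in electron transfer, thus lay on opposite sides of Input in the values as deposited and under each alternative run.

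Complex IV had 5 of 13 tested genes lower and 4 higher, where 30.6% of all genes tested were lower and 43.3% higher. Cox4i1, the common isoform of the subunit that binds ATP, measured 760.24 and 641.29 in eIF4E, 198.24 in IgG and 1495 and 1636 in Input. It fell to 0.447 of Input (log2 -1.16, SE 0.10, adjusted p = 5.24e-04). Cox6a1 measured 799.52 and 670.16 in eIF4E, 183.07 in IgG and 1185 and 1272 in Input, and fell to 0.597. Cox8a measured 673.63 and 551.21 in eIF4E, 153.51 in IgG and 776.17 and 801.1 in Input. Its fall to 0.773 missed the threshold when Input replicate 1 or 2 was dropped (adjusted p = 0.116 and 0.146), and it lay at log2 0.07 under quantile normalization. The matrix-side subunits Cox5a and Cox5b did not pass. Cox5b measured 116.07 and 85.96 in eIF4E, 15.55 in IgG and 88.34 and 87.96 in Input (1.13-fold, adjusted p = 0.326), and passed as higher without eIF4E replicate 2 (log2 0.39, adjusted p = 0.00984). Cox5a measured 856.95 and 769.85 in eIF4E, 68.39 in IgG and 900.64 and 947.2 in Input (0.88, adjusted p = 0.0571). Cox5a passed as lower under median-of-ratios scaling (log2 -0.49) and without eIF4E replicate 1 (log2 -0.26, adjusted p = 0.0215), and as higher under quantile normalization (log2 0.26).

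The rises in complex IV were Cox6b1, Cox7c, Cox7b and Cox6c. Cox6b1, which faces the intermembrane space, measured 260.16 and 176.94 in eIF4E, 5.85 in IgG and 122.4 and 89.63 in Input. The groups did not overlap, and it was 2.04-fold above Input (log2 1.03, SE 0.24, adjusted p = 0.0151). Cox7c measured 46 and 29.39 in eIF4E, 1.31 in IgG and 10.2 and 17.21 in Input, a 2.65-fold rise with the widest error of the 8 (SE 0.32, adjusted p = 0.0139). Cox7b, an X-linked subunit, measured 119.67 and 80.11 in eIF4E, 26.2 in IgG and 46.84 and 49.01 in Input, 2.02-fold above Input. Cox6c measured 861.54 and 660.72 in eIF4E, 125.11 in IgG and 534.14 and 563.75 in Input, 1.37-fold above Input (adjusted p = 0.031). These 4 calls were less stable than that of Cycs. Cox7c missed the threshold without eIF4E replicate 1 (adjusted p = 0.0735) or Input replicate 1 (0.0712), and Cox6b1 without eIF4E replicate 1 (0.0608) or Input replicate 2 (0.0934). Cox7b missed it without either Input replicate (0.0665 and 0.0588), as did Cox6c (0.162 and 0.12). How well RSEM divided reads shared with near-identical copies of these genes is not known, so single values are uncertain. Of the 11 symbols marked -ps that the membership rule left out, 4 were above 0, with a highest value of 4.21.

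Tissue isoforms of complex IV were read beside their common forms. Cox4i2, the isoform known from lung and hypoxia, was low, at 2.26 and 2.2 in eIF4E, listed at 0 in IgG, and 5.61 and 7.17 in Input. It fell to 0.44 of Input (adjusted p = 0.00162). At this low level the size depends on the scale, from log2 -0.65 with a pseudocount of 5 to -1.98 under quantile normalization. Cox6b2, known from testis, was at 3.44 and 1.73 in eIF4E and 3.82 and 3.36 in Input, listed at 0 in IgG, and did not pass (adjusted p = 0.222). It passed as lower without eIF4E replicate 1 (log2 -0.75, adjusted p = 0.0215). Of the muscle forms, Cox7a1 and Cox8b were listed at 0 in all 5 libraries and Cox6a2 reached 0.14 in 1 eIF4E library only. Cox7b2, Cox8c and Cox6c2 were also listed at 0 throughout. Cox7a2 measured 318.3 and 235.38 in eIF4E, 22.91 in IgG and 312.44 and 350.5 in Input, with overlapping groups (0.828, adjusted p = 0.18). It passed as lower without eIF4E replicate 1 (log2 -0.49, adjusted p = 0.0211). Its relative Cox7a2l, which bridges complexes III and IV in supercomplexes, measured 154.09 and 159.09 in eIF4E, 108.76 in IgG and 461.92 and 433.28 in Input. Its fall to 0.351 (log2 -1.51, SE 0.05, adjusted p = 7.62e-05) placed it at percentile 2.11 of all genes tested.

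Complex V had 10 of 17 genes lower and 1 higher, where 30.6% of all genes tested were lower and 43.3% higher. In the catalytic head, Atp5b measured 3068 and 3253 in eIF4E, 1346 in IgG and 5115 and 5170 in Input, and fell to 0.614 of Input (adjusted p = 2.09e-04). Atp5a1 (alpha) measured 390.98 and 395.61 in eIF4E, 167.89 in IgG and 587.93 and 571.89 in Input, a fall to 0.679. Atp5c1 (gamma, the rotating shaft) measured 649.11 and 661.6 in eIF4E, 194.23 in IgG and 862.23 and 866.84 in Input. It fell to 0.758, although quantile normalization put Atp5c1 at log2 0.05 and left Atp5b short of the threshold (adjusted p = 0.0605). Atp5d (delta) measured 26.51 and 13.45 in eIF4E, 9.12 in IgG and 53.57 and 53.5 in Input. Both eIF4E libraries were below Input, but they differed from each other by 1.97-fold, and the fall to 0.366 was not called with Input replicate 1 or 2 dropped (adjusted p = 0.0784 and 0.0786). Atp5e (epsilon) fell to 0.53, likewise not called with either dropped (0.134 and 0.171).

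The stalk that holds the head in place was split. Atp5o, the OSCP subunit at its top, measured 465.08 and 414.35 in eIF4E, 113 in IgG and 882.05 and 921.59 in Input, and fell to 0.488 (log2 -1.04, SE 0.07, adjusted p = 2.69e-04). Atp5h (subunit d) measured 631.49 and 558.98 in eIF4E, 160.77 in IgG and 1138 and 1248 in Input, a fall to 0.499. Atp5pb (subunit b) lay the other way, at 309.44 and 316.45 in eIF4E, 148.3 in IgG and 195.48 and 195.4 in Input, a rise of 1.60-fold (log2 0.68, SE 0.04, adjusted p = 2.02e-04). Atp5pb was the only complex V gene past the threshold above Input in the values as deposited. Atp5j (F6) measured 17.8 and 6.2 in eIF4E and 15.03 and 17.35 in Input, so that its eIF4E libraries lay on both sides of Input. It did not pass, but did as lower without eIF4E replicate 1 (log2 -1.25, adjusted p = 0.00682).

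Of the small membrane subunits, Atp5l (subunit g) fell to 0.653, a call that went when Input replicate 1 or 2 was dropped (adjusted p = 0.128 and 0.167). Atp5j2 (subunit f) and Atp5k (subunit e) did not pass, at 1.06-fold and 0.535. Atp5k was at 33.05 and 9.74 in eIF4E against 36.94 and 32.63 in Input, and passed as lower without eIF4E replicate 1 (log2 -1.73, adjusted p = 0.00335). Atp5md (DAPIT) and Atp5mpl, small accessory proteins of the complex, stood at 1.40-fold and 1.46-fold (adjusted p = 0.0632 and 0.123). Both passed as higher without eIF4E replicate 2 (log2 0.74 and 0.93, adjusted p = 0.0106 and 0.00325).

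The membrane ring of ATP synthase is built from subunit c, for which 3 genes (Atp5g1, Atp5g2 and Atp5g3) encode the same mature protein behind different import signals. Their values differed in the precipitate. Atp5g1 measured 267.49 and 234.32 in eIF4E, 132.55 in IgG and 651.94 and 740.7 in Input, a fall to 0.361 of Input (log2 -1.47, SE 0.10, adjusted p = 2.51e-04). Atp5g2 measured 678.61 and 595.07 in eIF4E, 144.14 in IgG and 1528 and 1673 in Input, a fall to 0.398 (log2 -1.33, SE 0.08, adjusted p = 2.32e-04). Atp5g3 measured 552.23 and 503.34 in eIF4E, 76.25 in IgG and 546.1 and 549.13 in Input, with overlapping groups at 0.963 (adjusted p = 0.426). Median-of-ratios scaling took Atp5g3 to log2 -0.36 (adjusted p = 0.00303), quantile normalization to 0.33 (0.00465) and a common total to 0.19 (0.0307), while Atp5g1 and Atp5g2 were lower under each alternative run. In level, Atp5g2 stood above Atp5g3 and Atp5g3 above Atp5g1 in both eIF4E libraries, whereas in both Input libraries Atp5g1 stood above Atp5g3. The difference in fold change between the 3 genes was not tested.

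**Figure D3:**
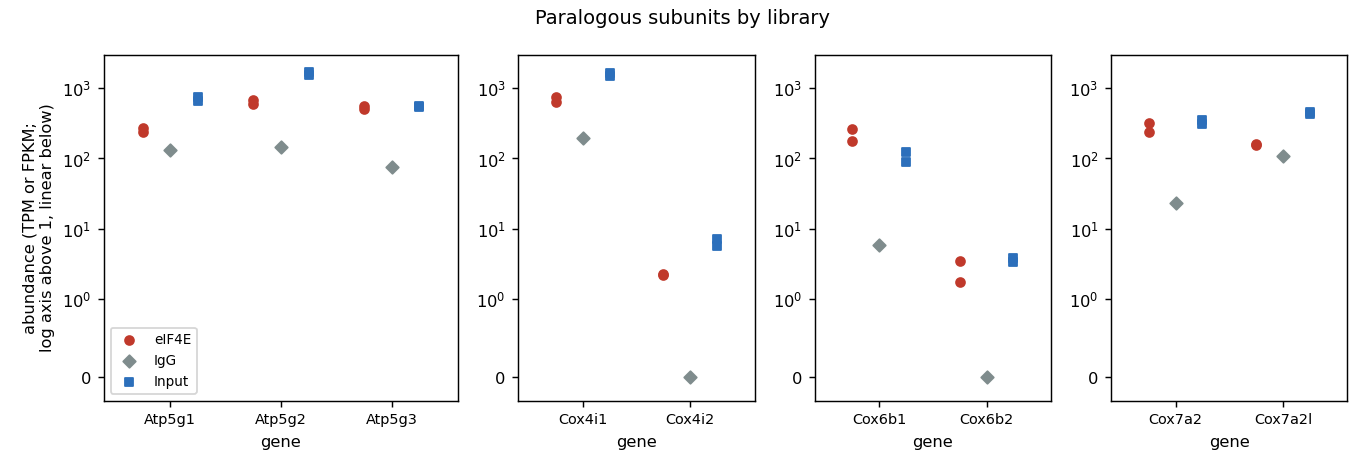
Abundance (y axis, log above 1 and linear below) of paralogous subunits (x axis) in each library, 1 point per library. Atp5g3 is the subunit c gene whose eIF4E and Input points overlap, and Cox4i2 and Cox6b2 are listed at 0 in IgG.

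The promoters of the 3 subunit c genes are shown because these genes share a product and differed in fold change. Each is the run of 250 bases before a RefSeq transcript start (GRCm38.p6), in capitals where it holds the palindromic consensus of NRF1, a factor known for regulating respiratory genes (the capitals in Atp5g2), or CCGGAAG on either strand (the core bound by ETS factors such as GABPA). The starts used for Atp5g1 and Atp5g3 are not their outermost ones: the RefSeq gene records reach to base 96075694 of chromosome 11 and base 73912464 of chromosome 2, upstream on the minus strand, so the Atp5g3 window lies within its gene and the Atp5g1 window overlaps its own. Which start is used in these cells was not tested.
Atp5g1 (chr11:96075632-96075881, minus strand): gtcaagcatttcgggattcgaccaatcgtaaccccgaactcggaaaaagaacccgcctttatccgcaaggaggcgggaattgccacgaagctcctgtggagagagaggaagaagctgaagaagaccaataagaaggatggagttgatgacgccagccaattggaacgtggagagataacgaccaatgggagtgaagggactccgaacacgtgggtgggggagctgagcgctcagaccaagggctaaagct
Atp5g2 (chr15:102671048-102671297, minus strand): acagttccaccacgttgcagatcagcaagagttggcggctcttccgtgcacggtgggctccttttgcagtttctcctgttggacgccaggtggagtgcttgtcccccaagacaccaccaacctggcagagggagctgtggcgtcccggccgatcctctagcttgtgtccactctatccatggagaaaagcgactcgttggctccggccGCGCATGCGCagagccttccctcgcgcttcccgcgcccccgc
Atp5g3 (chr2:73911327-73911576, minus strand): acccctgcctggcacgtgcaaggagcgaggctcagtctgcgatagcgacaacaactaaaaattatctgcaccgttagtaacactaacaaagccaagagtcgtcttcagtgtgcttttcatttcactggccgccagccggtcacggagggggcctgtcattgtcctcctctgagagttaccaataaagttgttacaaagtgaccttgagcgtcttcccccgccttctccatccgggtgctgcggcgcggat
Cox6a1, which holds both motifs and fell, and Cox6b1, which holds the ETS core and rose, are shown for comparison within complex IV.
Cox6a1 (chr5:115348959-115349208, minus strand): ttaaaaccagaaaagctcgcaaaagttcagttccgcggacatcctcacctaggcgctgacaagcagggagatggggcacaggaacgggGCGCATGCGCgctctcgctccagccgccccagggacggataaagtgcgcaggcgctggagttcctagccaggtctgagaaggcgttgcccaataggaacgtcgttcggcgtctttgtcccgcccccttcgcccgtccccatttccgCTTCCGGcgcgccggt
Cox6b1 (chr7:30626115-30626364, minus strand): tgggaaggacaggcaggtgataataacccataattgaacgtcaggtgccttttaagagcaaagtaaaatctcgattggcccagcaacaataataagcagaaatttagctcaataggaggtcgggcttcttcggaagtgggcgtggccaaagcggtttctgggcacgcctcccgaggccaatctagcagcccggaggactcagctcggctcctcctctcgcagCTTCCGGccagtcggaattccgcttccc
Promoter windows were found for 37 of the 50 genes, among them Cox7a1, Cox7b2 and Cox8b, which were not tested. The shares of the 37 include these untested genes, whereas the shares of genes tested do not. The NRF1 consensus was in 3 of the 37 (8.11%: Atp5g2, Atp5k and Cox6a1), against 1.97% of genes tested and 0.877% of all RefSeq genes with a window. The ETS core was in 9 (24.3%), against 16.2% and 7.83%. These are matches of letters only. All 3 genes with the NRF1 consensus lay below Input, as did 30 of the 44 tested subunit genes. The 3 were Atp5g2 at log2 -1.33, Atp5k at -0.90, which did not pass, and Cox6a1 at -0.75. A link between motif and direction was not tested. Genes with the ETS core lay on both sides, from Atp5h at 0.499 of Input to Cox6b1 at 2.04-fold.

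Transcripts known to be tuned by mTOR through the cap often begin with a C and a run of pyrimidines (the TOP motif). A start of C followed by 4 bases of C or T was found for 3 of the 37 genes (8.11%: Atp5d in 1 of its windows, Atp5g2 and Uqcrfs1), against 3.08% of genes tested. The first 20 bases of the subunit c transcripts, from the same starts, are shown with such a run in capitals.
Atp5g1 (chr11:96075612-96075631, minus strand): gggaggtgagtcagtcacct
Atp5g2 (chr15:102671028-102671047, minus strand): CCCTCTCTgtcttctctgcc
Atp5g3 (chr2:73911307-73911326, minus strand): aagagccgcaccgcgcttgc
From these starts Atp5g2 begins with 8 pyrimidines, and Atp5g1 and Atp5g3 begin with a purine, which need not hold for their other starts. All 3 genes with the pyrimidine start were lower in eIF4E than in Input. Their values were log2 -1.45 for Atp5d, -1.33 for Atp5g2 and -0.25 for Uqcrfs1. Atp5d and Uqcrfs1 lost their calls under alternatives given above. Of all 44 tested subunit genes 23 were lower, and 30 had a fold change below 0. A link between the start and the fold change was not tested.

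Against the IgG precipitate, the values are relative within each library, since how much RNA either antibody brought down is unknown. Column totals were 718857 and 708778 in eIF4E and 560076 in IgG, so equal values are unequal shares. The lone IgG library was assumed to vary like the others. Here 41 of 44 subunit mRNAs were higher in eIF4E (53.1% of all genes tested were higher) and none was lower (30.6% of all genes), with 83.8% of all genes called in either direction. All 44 fold changes were above 0, so none was lower at an unadjusted p under 0.05 either. The median subunit stood at log2 1.84, against 0.55 for all genes tested. With a common total these medians were 1.57 and 0.26. There 37 subunit mRNAs were higher and 0 lower, with 47.5% of all genes higher and 37.8% lower. Across the alternatives, 33 of the 41 passed in each, and quantile normalization gave 35 higher and 1 lower, Cyc1 (log2 -0.33, adjusted p = 0.00208), with 36.1% of all genes higher and 37.9% lower.

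The largest fold changes over IgG were those of Cox6b1, Atp5mpl and Uqcr11. Cox6b1 (260.16 and 176.94 in eIF4E against 5.85 in IgG) was 31.5-fold above IgG, Atp5mpl (164.55 and 95.27 against 4.85) 21.6-fold and Uqcr11 (188.87 and 125.97 against 6.69) 20.2-fold, with adjusted p-values from limma of 1.15e-04, 2.15e-04 and 1.45e-04. At the other end, Cyc1 was 1.33-fold above IgG, Sdha 1.34-fold and Cox7a2l 1.44-fold. The adjusted p-values of these 3 were 8.44e-04, 0.00369 and 0.00121, and each missed the threshold after rescaling to a common total (0.282, 0.396 and 0.0745). Atp5d, Atp5j and Atp5k did not pass in the values as deposited (adjusted p = 0.0651, 0.173 and 0.062). Their eIF4E libraries differed by 1.97-fold, 2.87-fold and 3.39-fold, and Atp5d and Atp5k passed as higher without eIF4E replicate 1 (adjusted p = 0.00966 and 0.00881) or 2 (0.00124 and 0.00122), and Atp5j without replicate 2 (0.0032). Dropping Input replicate 1 or 2, which here changes the shared spread only, left Atp5e (0.0518 and 0.0517) and Uqcrh (0.0852 and 0.0851) short of the threshold.

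Set against Input, the lone IgG precipitate had 41 of 44 subunit mRNAs lower (50.3% of all genes tested were lower) and none higher (37.8% of all genes), with 88.1% of all genes called in either direction. None was higher at an unadjusted p under 0.05. With a common total the split was 39 lower and 3 higher, with 42.4% of all genes lower and 45.7% higher. The median subunit was at log2 -2.41, and that of all genes at -0.43. Uqcr11 (6.69 in IgG against 166.45 and 131.92 in Input) stood at 0.0516 of Input and Uqcr10 (4.4 against 87.43 and 95.33) at 0.0585. Sdha (114.48 against 104.97 and 104.5), Cycs (14.44 against 12.17 and 11.84) and Atp5j did not pass, with adjusted p of 0.146, 0.0834 and 0.0547. Atp5j passed as lower without either eIF4E replicate (0.00224 and 0.00205), which changes the shared spread only. Atp5pb was at 0.76 of Input, a fall that turned to log2 0.29 under quantile normalization and 0.19 with a common total. This comparison shares its IgG library with the one before and its Input libraries with the first, so the 3 sets of values are not independent of each other.

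**Figure D4:**
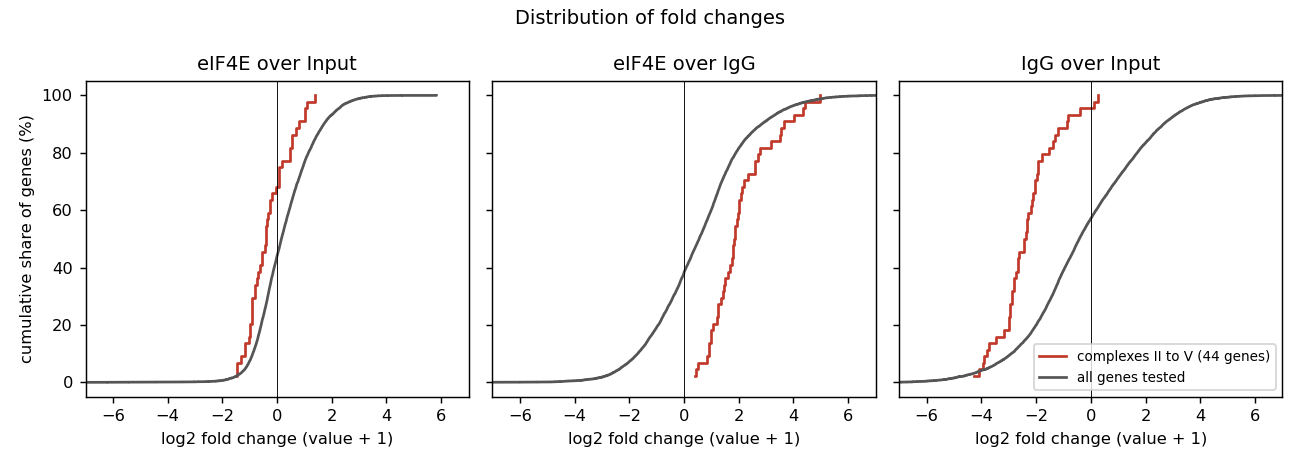
Cumulative share of genes (y axis, %) by log2 fold change (x axis, value + 1) for the 44 tested subunit genes (red) and all 12769 genes tested (grey) in the 3 comparisons. Over most of its range the red curve lies left of the grey one for eIF4E over Input and for IgG over Input, and right of it for eIF4E over IgG, with medians of -0.40, -2.41 and 1.84.

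Within the eIF4E pair the subunit genes did not scatter evenly. Replicate 1 was above replicate 2 for 34 of the 44 (77.3%), against 46.2% of all genes tested. In the Input pair replicate 1 was above replicate 2 for 14 of 44 (31.8%), against 51.3% of all genes. The median ratio of replicate 1 to 2 was 1.19 in eIF4E and 0.957 in Input. Atp5k, Atp5j and Uqcrh had the widest eIF4E ratios, at 3.39, 2.87 and 2.17, while Atp5b, Atp5a1, Atp5pb, Cyc1, Uqcrc1 and Sdha lay between 0.921 and 0.999. The complex I subunits behaved alike, with replicate 1 higher for 32 of 38 (84.2%). The part this difference plays in the falls and rises above was not tested beyond leaving out each library.

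**Figure D5:**
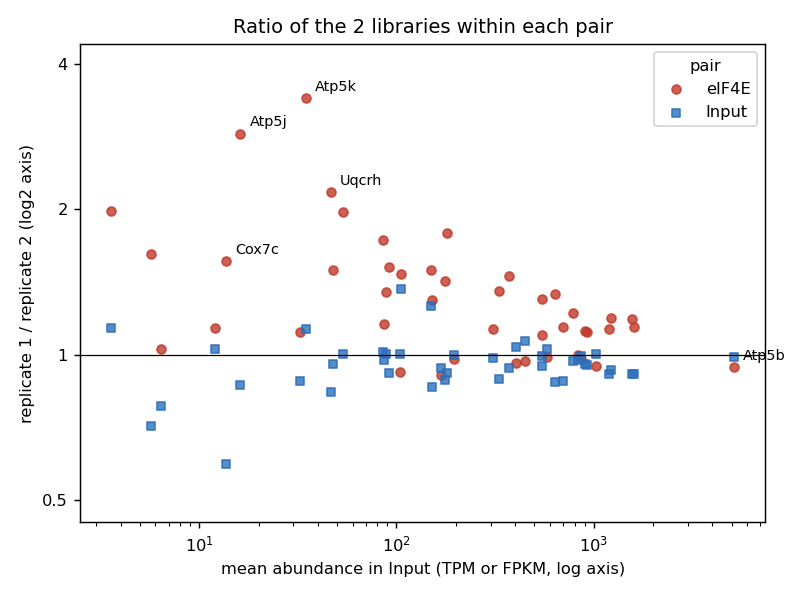
Ratio of replicate 1 to replicate 2 (y axis, log2 scale) within the eIF4E pair (circles) and the Input pair (squares) against mean Input abundance (x axis, log scale) for the 44 tested subunit genes. The eIF4E ratios lie above 1 for 34 genes and are widest for the low-abundance Atp5k, Atp5j and Uqcrh.

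Nuclear-encoded complex I subunits and the mitochondrial ribosome, which are built from nuclear and mitochondrial products in the same way, gave values of a like kind. For eIF4E against Input the medians were log2 -0.40 for complexes II to V, -0.70 for 38 complex I subunits and -0.40 for 78 mitochondrial ribosomal proteins. The lower genes numbered 23 of 44, 24 of 38 and 47 of 78, against 30.6% of all genes tested. Against IgG the medians were 1.84, 2.16 and 1.50. The 38 were picked by Nduf symbol, so a gene with such a name that belongs to another complex would be counted among them. No test of the difference between these groups was run.

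The mitochondrially encoded partners of the same complexes stood apart in level. mt-Cytb of complex III measured 6.17 and 7.88 in eIF4E, 3901 in IgG and 710.85 and 663.53 in Input. mt-Co1, the catalytic core of complex IV, measured 15 and 17.91 in eIF4E, 3241 in IgG and 866.32 and 829.92 in Input. Both eIF4E libraries had a listed value of 0 for the other 4 (mt-Co2, mt-Co3, mt-Atp6, mt-Atp8). All 6 were lower in eIF4E than in Input, as were 5 of 9, 5 of 13 and 10 of 17 tested nuclear genes of complexes III, IV and V. IgG was the highest library for 5 of the 6 and listed mt-Atp8 at 0, whereas it was the lowest library for each tested nuclear gene of these 3 complexes. These mRNAs are made inside the organelle and carry no cap.

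Genes that assemble the complexes went both ways against Input, where 43.3% of all genes were higher and 30.6% lower. Of the complex II factors, Sdhaf2, Sdhaf3 and Sdhaf4 rose (1.79-fold, 1.96-fold and 1.67-fold over Input) and Sdhaf1 fell to 0.745. Of the complex IV factors, 6 of 27 tested were higher and 10 lower, from the copper-enzyme assembly protein Cox20 (97.13 and 90.43 in eIF4E, 113.16 in IgG, 35.4 and 36.51 in Input; 2.56-fold) to Higd2a at 0.491. For complex III, 1 of 6 was higher, Ttc19 (2.59-fold), and 2 were lower, Uqcc2 (0.614) and Bcs1l (0.623). Complex V factors had 2 of 5 higher, Tmem70 (1.71-fold) and Atpaf1 (1.70-fold), and 2 lower, Fmc1 (0.501) and Tmem242 (0.576). The cristae genes, which fold the membrane that holds the chain, had 4 of 10 higher, led by Opa1 (3.17-fold), and 3 lower, led by Phb (0.454). Import machinery had 5 of 26 higher, from Tomm70a at 5.53-fold, and 15 lower, to Timm29 at 0.356. Several of these rises over Input were not rises over IgG: eIF4E stood below IgG for Tomm70a (0.605), Sdhaf3 (0.661), Ttc19 (0.612) and Cox20 (0.83), each past the threshold, and did not pass for Opa1 (1.06-fold) and Atpaf1 (0.879).

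Among regulators of the respiratory genes, 9 of 15 tested were higher in eIF4E than in Input and 2 lower (43.3% and 30.6% of all genes). Against IgG, 10 were higher and 5 lower in eIF4E, and 7 of the 15 were higher in IgG than in Input. Tfam, which packages and transcribes mitochondrial DNA, measured 178.29 and 185.05 in eIF4E, 97.46 in IgG and 56.28 and 50.7 in Input (3.36-fold). Tfb2m was 6.82-fold above Input, and Gabpa 3.76-fold. Nrf1 did not pass (1.07-fold, adjusted p = 0.178). Cluh, which binds mRNAs of nuclear-encoded mitochondrial proteins, fell to 0.544 (3 and 2.93 in eIF4E, 1.42 in IgG, 6.03 and 6.56 in Input). Gabpa overlaps Atp5j in the RefSeq table, so reads of the pair may not be fully separated.

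Across the 44 subunit genes the fold change of eIF4E over Input and the genomic span of the gene gave Spearman's rho = 0.0451, and across 12399 genes tested 0.401. For eIF4E over IgG the values were -0.259 over the subunits and -0.257 over all genes, and for IgG over Input 0.223 and 0.389. The subunit genes are short, with a median span of 6916.5 bases against 21987 for those genes. Fold change of eIF4E over Input and mean Input level gave rho = -0.392 over the subunits and -0.455 over all genes. Both share the Input libraries, so a negative value arises in part by construction, and genes are not independent replicates.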

How the data were processed

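Smart-seq2 libraries were made from eIF4E precipitates, an IgG precipitate and Input, per the labels' protocols. The deposited table holds RSEM abundances, per the submitters' processing notes (STAR 2.7.9a, RSEM 1.3.3, mm10), as TPM or FPKM, with no header saying which, 1 column per library and no counts. No source used here names the annotation, options or row filters. Column totals were 718857 and 708778 (eIF4E), 560076 (IgG) and 838759 and 848550 (Input). Of 50161 rows, 286 were exact repeats of a gene ID and were left out.

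The 12769 genes that reached 1 in 2 or more libraries were transformed as log2(value + 1) and fitted with limma 3.58.1 in R 4.3.3 (3 groups, eBayes with trend, two-sided, Benjamini-Hochberg over all genes tested, threshold 0.05), with 2 residual degrees of freedom and 2.57 prior ones at the median. The fit was tested on simulated data. Membership follows gene symbols, but this set of genes, the lists and the rules were chosen with earlier results of these data known. Named genes were the extremes of each complex by fold change, the catalytic and core subunits, isoform sets, all risers over Input, the 3 furthest from IgG each way, and the extremes of each related list. Promoter windows and gene positions came from RefSeq (GRCm38.p6), matched by symbol. Whether same-numbered eIF4E and Input libraries came from the same lysate is not known. Their deviations correlated at r = 0.0236 across genes, which cannot decide it, since spread added by the precipitation could hide a shared lysate. Alternatives covered the pseudocount, filter, scaling, variance trend, replicate block and each replicate left out.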

Additional observations from a re-analysis of the deposited data

How the results depend on the processing

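With 2 libraries in a group and 1 IgG library, precision is limited by their number, and depth is unknown. The 23 falls and 41 calls in each IgG comparison kept within 1.5 times of their counts under all alternatives, and no member was lower in eIF4E than in IgG except 1 under quantile normalization (Cyc1). The 8 rises over Input became 5 with no filter and 13 with a common total, and ranged from 4 to 11 with 1 replicate left out. The 23 falls ranged from 16 to 29 there. In eIF4E over IgG the rises ranged from 39 to 44 and the falls stayed at 0, and in IgG over Input the falls ranged from 37 to 42 and the rises stayed at 0, with 1 replicate left out. Members higher in IgG than in Input, 0 as deposited, were 2 under quantile normalization and 3 with a common total. The summed level of members, eIF4E vs Input, as a difference in library share, ranged from -0.680 to -0.487 percentage points with 1 replicate left out, and was -0.601 without mitochondrially encoded genes and -0.417 without Atp5b, an alternative chosen after seeing the data.

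Turns of direction are given where the value as deposited or under the alternative passed the threshold. Others are left out, such as Cox5a over Input with a common total (log2 0.0556). Directions over Input turned under quantile normalization for Cox5a (log2 0.26), Atp5g3 (0.33), Atp5c1 (0.0465) and Cox8a (0.0711). They turned for Atp5g3 with a common total (0.19), and for Uqcrc2 under median-of-ratios scaling (-0.25). They also turned for Cyc1 over IgG (-0.33) and Atp5pb in IgG over Input (0.29) under quantile normalization, and for Atp5pb with a common total (0.19). The cause was not tested. With the replicate number as a block, 8 members were higher and 22 lower, and Uqcrfs1 lost its call (adjusted p = 0.0636), while no other call changed. The 4 eIF4E and Input libraries alone gave 8 and 23.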
